A study of Mus musculus with 4 samples.

Results

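A set of 10 genes that mark successive stages of B cell development were read in RNA libraries of bone marrow-derived macrophages (BMDMs). They were chosen by symbol, with earlier results of these data known, and all 10 were found among the 16375 genes listed. Of these, 7 belong to the pro-B and pre-B stages, where the immunoglobulin genes are assembled (Rag1, Rag2, Dntt, Vpreb1, Vpreb3, Igll1 and Il7r), and 3 belong to mature B cells (Ms4a1, Cd22 and Fcer2a). BMDMs were made by culturing bone marrow cells in medium with macrophage colony-stimulating factor, from WT mice and from mice lacking the long noncoding RNA lncLy6c (LNCKO), a CRISPR-Cas9 deletion on the C57BL/6J background. Each genotype was cultured without (control) or with 500 µM butyrate, a short-chain fatty acid of gut bacteria, for 24 h, which gave 4 groups with 1 library each. The methods give C57BL/6 mice aged 4 to 6 weeks of either sex, but not the age or sex of the donors of these cultures. The methods describe no sorting of the cultured cells, and bone marrow is also the site where B cells develop.

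B cells develop from marrow progenitors in an ordered series. In pro-B cells, the IL-7 receptor carries the survival and growth signal, the RAG1 and RAG2 proteins cut the immunoglobulin loci, and terminal transferase (Dntt) adds bases at the joins. Once a heavy chain is made, it pairs with the surrogate light chain, built from the products of Vpreb1 and Igll1 (the lambda5 chain), into the pre-B cell receptor. RAG then acts again at the light chain loci. Mature B cells have switched these genes off and express CD20 (Ms4a1), the inhibitory lectin CD22 and CD23 (Fcer2a), the low-affinity receptor for IgE.

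Since a group is 1 library, the differences could not be checked against replicates, and no test was made. The files give FPKM, fragments per kilobase of gene for every 1000000 sequenced fragments, and the ratios between values gave library totals of 53363944 to 65521713 fragments. With the genomic span as gene length, all 10 members had whole fragments in all 4 libraries. All intervals are exact 95% intervals from these fragments. No molecular identifiers were given for these paired reads, and the intervals cover counting error only and say nothing of the spread between cultures. A change is the log2 ratio of FPKM + 0.01 unless a plain ratio is named. The background is the 10959 genes whose FPKM averaged 0.1 or more over the libraries, a floor that all 10 members passed. No gene is listed as lncLy6c, so the deletion itself was not analysed here. The Y-linked gene Ddx3y had at most 65 fragments in a WT library and at least 6128 in an LNCKO library, and genotype therefore cannot be told apart from the sex of the donors.

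The cultures held transcripts of B lineage and of macrophage cells side by side. Levels between genes were compared as fragments per kilobase of exon for every 1000000, since FPKM on the genomic span depends on intron length. On this exon scale, the macrophage receptor gene Csf1r had levels of 209 to 254 over the 4 libraries. The B cell receptor chain gene Cd79a had levels of 170 to 229, a range that overlaps it. Cd3e, a defining T cell gene, had exon-scale levels of 0.0828 to 0.464. Some other T lineage markers were higher, with 2.96 to 4.56 for Lck, 1.64 to 2.34 for Cd8b1 and 1.24 to 2.01 for Cd8a. Cd4, which macrophages can also express, had 11.3 to 14.9. Cd3d, Cd3g and Bcl11b stayed below Cd8a in every library, and Ptcra ran from 0.207 to 1.58. In WT control, Lck, Cd8b1 and Cd8a lay above the member Rag2 at 1.42. Innate lymphoid and NK markers were near 0, with 0 of 6 above the floor. In WT control, the exon-scale levels of the members ran from Ms4a1 at 52.3 through Vpreb3 at 40.8, Cd22 at 39.2, Il7r at 21.8, Rag1 at 15.7, Dntt at 5.93, Fcer2a at 2.78, Vpreb1 at 1.58 and Igll1 at 1.57 to Rag2 at 1.42. In this order Vpreb3 and Cd22 did not differ beyond counting error, nor did Vpreb1, Igll1 and Rag2 as neighbours. In WT butyrate, Rag1 came below Dntt and Fcer2a with a level of 3.65, and Igll1 came last at 0.359, with an interval that overlapped that of Rag2 at 0.39. In both LNCKO libraries, Rag1 came directly below Il7r, as in WT control.

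**Figure D1:**
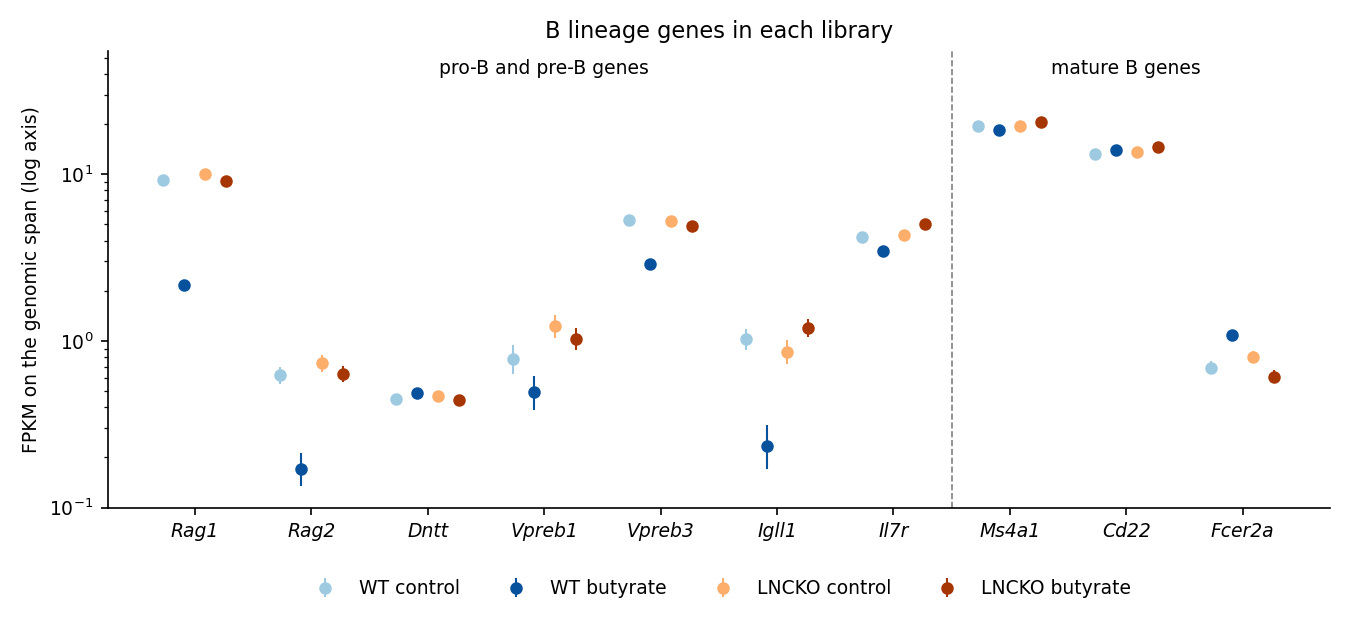
FPKM of the 10 genes on the genomic span (log axis) in the 4 libraries, 1 point per library, with exact 95% counting intervals as bars where they exceed the point. The WT butyrate point is the lowest of the 4 for Rag1, Rag2, Vpreb1, Vpreb3, Igll1, Il7r and, by a small margin, Ms4a1, and the highest for Dntt and Fcer2a.

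The clearest pattern was in WT macrophage cultures with butyrate, where both Rag genes, the surrogate light chain genes and Vpreb3 were lower, whereas Dntt, Il7r and the mature B genes were not lower by 1.5-fold. Rag1, Igll1 and Rag2 were 3.64-fold to 4.36-fold lower than in WT control as plain ratios of FPKM. Of the 7 pro-B and pre-B genes, 5 were at least 1.5-fold lower, where 2.91% of all genes were, and 3 were at least 2-fold lower, where 0.922% of all genes were. Because the set was chosen with earlier results of these data known, these counts are a description only. None of the 3 mature B genes was at least 1.5-fold lower. The median change was -0.87 for the pro-B and pre-B genes and 0.07 for the mature B genes, against -0.05 for all genes. The difference between the stage medians was -0.94. In LNCKO, the corresponding medians were -0.10 and 0.08, against -0.02 for all genes, and 0 of the 10 genes differed by 1.5-fold in either direction, where 1.24% of all genes were lower and 2.04% higher by that much. In bulk samples, fewer cells of a type and less RNA per cell cannot be told apart.

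**Figure D2:**
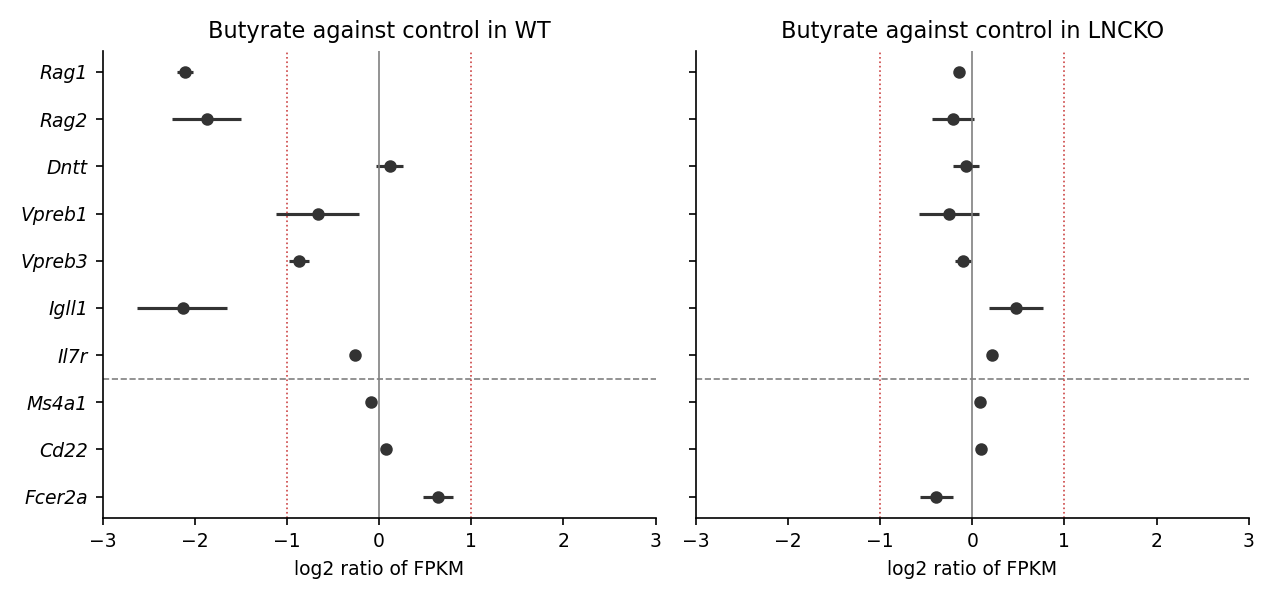
Plain log2 ratio of FPKM for butyrate against control, in WT (left) and LNCKO (right), with exact 95% counting intervals as bars and dotted lines at 2-fold. Rag1, Rag2 and Igll1 lie beyond 2-fold in WT, whereas all 10 genes lie within it in LNCKO.

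Rag1 encodes the catalytic subunit of the recombinase (ENSMUSG00000061311, chr2:101638282-101649501, - strand, GRCm38). Its FPKM was 9.27 without and 2.15 with butyrate in WT, and 10.1 without and 9.11 with butyrate in LNCKO. The WT butyrate library stood alone at the low end, and the other 3 lay close to each other. In fragments, these were 5864, 1429, 6041 and 6695, the deepest counts of the recombination genes. The ratio with butyrate was 0.232 in WT, with an interval of 0.219 to 0.246, and 0.903 in LNCKO, with an interval of 0.872 to 0.935. The change of -2.10 in WT was number 26 from the lowest of the 10959 genes.

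Rag2 encodes the partner subunit (ENSMUSG00000032864, chr2:101624718-101632529, + strand), and it lies beside Rag1 in the opposite orientation. Its FPKM was 0.622 without and 0.171 with butyrate in WT, and 0.734 without and 0.635 with butyrate in LNCKO, from 274, 79, 306 and 325 fragments. Again only WT butyrate was low. The ratio with butyrate was 0.275 in WT (0.211 to 0.354) and 0.865 in LNCKO (0.738 to 1.01), and the LNCKO interval includes 1. Both Rag genes lie within the span of B230118H07Rik, which shares 80 exonic bases with Rag1 on its strand and 208 with Rag2 on the opposite strand. That gene had 506 to 581 fragments in the 4 libraries, with the most in WT butyrate, where both Rag genes had the fewest. The sources used here do not state whether the counting used strand.

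Igll1 and Vpreb1 encode the components of the surrogate light chain and lie close together on chromosome 16. Igll1 (ENSMUSG00000075370, chr16:16860671-16863985, - strand) had an FPKM of 1.02 without and 0.234 with butyrate in WT, and 0.859 without and 1.19 with butyrate in LNCKO. WT butyrate was lowest and LNCKO butyrate highest. The fragments behind these values were few, at 191, 46, 152 and 259. With butyrate, the ratio was 0.229 in WT (0.163 to 0.318) and 1.39 in LNCKO, with an interval above 1, so the directions were opposite. Vpreb1 (ENSMUSG00000059305, chr16:16868403-16870843, - strand) had an FPKM of 0.777 without and 0.491 with butyrate in WT, and 1.23 without and 1.03 with butyrate in LNCKO. Here, too, WT butyrate was the lowest, but by less. The ratio with butyrate was 0.632 in WT (0.462 to 0.861), an interval that does not overlap that of Igll1, and 0.84 in LNCKO (0.672 to 1.05). Vpreb1 had only 107, 71, 160 and 165 fragments. It has a near-identical copy, Vpreb2, and the counting could have split or dropped reads between them. Vpreb2 had 0 to 10 fragments per library, and the sum of both genes changed by -0.60 in WT and -0.27 in LNCKO. Vpreb1 also shares 108 exonic bases with Top3b on the opposite strand, whose FPKM stayed between 2.61 and 2.74.

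Vpreb3 encodes a relative of the surrogate light chain that associates with newly made immunoglobulin chains (ENSMUSG00000000903, chr10:75943057-75949657, + strand). Its FPKM was 5.31 without and 2.90 with butyrate in WT, and 5.24 without and 4.88 with butyrate in LNCKO, from 1977, 1135, 1845 and 2112 fragments. The ratio with butyrate was 0.547 in WT (0.508 to 0.589) and 0.932 in LNCKO (0.875 to 0.993). Its change in WT was thus smaller than that of Igll1 beyond counting error, and it was the median of the 7 pro-B and pre-B genes.

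The promoters of these 5 genes are shown because they are the members that were at least 1.5-fold lower in WT butyrate. Each window holds 250 bases before and 50 bases after a RefSeq start (GRCm38.p6), read 5′ to 3′ on the gene's strand. The windows are chr2:101649483-101649782 for Rag1, chr2:101624462-101624761 for Rag2, chr16:16863936-16864235 for Igll1, chr16:16869206-16869505 for Vpreb1 and chr10:75948050-75948349 for Vpreb3. Capitals mark matches, on either strand, to CAGGTG (a box bound by E proteins such as E2A), CAGCTG (a second E-box), CCCNNGGG (the core of the EBF1 site), ATGCAAAT (the octamer of OCT factors) and TGGGAA (the Ikaros core).
Rag1: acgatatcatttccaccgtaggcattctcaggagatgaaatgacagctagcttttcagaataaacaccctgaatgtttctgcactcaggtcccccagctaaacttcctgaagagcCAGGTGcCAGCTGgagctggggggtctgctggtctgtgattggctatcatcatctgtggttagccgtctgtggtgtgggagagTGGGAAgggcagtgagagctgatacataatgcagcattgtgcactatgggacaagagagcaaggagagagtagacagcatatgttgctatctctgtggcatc
Rag2: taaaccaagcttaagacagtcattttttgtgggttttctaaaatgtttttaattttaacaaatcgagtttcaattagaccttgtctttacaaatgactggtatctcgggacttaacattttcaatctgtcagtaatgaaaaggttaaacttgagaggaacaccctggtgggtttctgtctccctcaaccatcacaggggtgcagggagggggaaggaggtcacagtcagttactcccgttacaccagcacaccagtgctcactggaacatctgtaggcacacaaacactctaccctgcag
Igll1: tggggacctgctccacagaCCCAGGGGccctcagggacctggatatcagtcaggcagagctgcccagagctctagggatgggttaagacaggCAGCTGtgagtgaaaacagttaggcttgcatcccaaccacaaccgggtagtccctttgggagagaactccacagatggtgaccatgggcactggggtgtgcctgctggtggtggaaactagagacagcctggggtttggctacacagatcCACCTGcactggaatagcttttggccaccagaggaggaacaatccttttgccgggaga
Vpreb1: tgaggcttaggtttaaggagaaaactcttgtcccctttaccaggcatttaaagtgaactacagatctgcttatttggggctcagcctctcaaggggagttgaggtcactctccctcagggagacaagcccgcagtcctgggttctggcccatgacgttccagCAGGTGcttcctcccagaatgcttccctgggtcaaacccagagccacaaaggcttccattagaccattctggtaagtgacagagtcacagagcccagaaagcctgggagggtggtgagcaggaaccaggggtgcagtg
Vpreb3: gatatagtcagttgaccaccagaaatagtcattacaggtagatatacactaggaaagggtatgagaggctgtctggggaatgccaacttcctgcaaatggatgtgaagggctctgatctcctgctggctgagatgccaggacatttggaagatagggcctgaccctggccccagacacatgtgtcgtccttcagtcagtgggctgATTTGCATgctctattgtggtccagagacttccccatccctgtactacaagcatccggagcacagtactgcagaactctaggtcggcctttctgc
Rag1 held CAGGTG at 135 bases, CAGCTG at 128 bases and TGGGAA at 52 bases before the start, with no overlap between them. Igll1 held an EBF1 core at 231 bases, CAGCTG at 158 bases and the reverse complement of CAGGTG at 8 bases before it. Vpreb1 held CAGGTG at 88 bases, Vpreb3 held the reverse complement of the octamer at 45 bases, and Rag2 held none of the 5 motifs. Of 32544 promoter windows in the RefSeq table, 20.3% held CAGGTG, 16.4% CAGCTG, 13.7% the EBF1 core, 1.75% the octamer and 25.4% the Ikaros core. The windows of Dntt and Il7r held none of these motifs either, whereas that of Cd22 held CAGGTG, the EBF1 core and the Ikaros core. Fcer2a had 3 windows, of which the first held none of these motifs, the second held CAGGTG at 2 places, CAGCTG at 1 and the Ikaros core at 2, and the third held the Ikaros core at 1. Ms4a1 was not in the promoter table. Of the 10 members, 9 had a window. These matches are letters in a short window and describe neither binding nor enhancers.

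Unlike the 5 above, Dntt and Il7r, the other pro-B genes, were not lower by 1.5-fold in WT butyrate. Dntt (ENSMUSG00000025014, chr19:41029275-41059525, + strand) had an FPKM of 0.45 without and 0.486 with butyrate in WT, and 0.465 without and 0.444 with butyrate in LNCKO. These values lay within a narrow band with no low library. With butyrate, the ratio was 1.08 in WT (0.981 to 1.19) and 0.955 in LNCKO (0.866 to 1.05), from 751 to 881 fragments per library. Il7r (ENSMUSG00000003882, chr15:9505788-9530176, - strand) had an FPKM of 4.17 without and 3.48 with butyrate in WT, and 4.32 without and 5.03 with butyrate in LNCKO. WT butyrate was lowest and LNCKO butyrate highest. Its ratio with butyrate was 0.835 in WT (0.804 to 0.867) and 1.16 in LNCKO, with an interval above 1. Il7r is also expressed by T cells and innate lymphoid cells, and Dntt by early lymphoid progenitors and immature T cells. Over the 9 T lineage markers, none of which was at 0, the summed FPKM ran from 4.30 in WT butyrate to 5.04 in LNCKO butyrate. Of the 8 above the floor, 4 were lower and 4 higher with butyrate in WT, and 7 were higher in LNCKO. Cd4, which macrophages can also express, had the highest FPKM of these markers in every library and weighed most in the summed FPKM. In WT butyrate, the T cell precursor gene Ptcra had 120 fragments against 15 in WT control. The part of such cells in the Dntt and Il7r values was not tested.

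Of the mature B genes, Ms4a1 was slightly lower in WT butyrate, Cd22 slightly higher and Fcer2a higher. Ms4a1 (ENSMUSG00000024673, chr19:11249675-11266241, - strand) had an FPKM of 19.5 without and 18.4 with butyrate in WT, and 19.4 without and 20.5 with butyrate in LNCKO. Its ratio with butyrate was 0.942 in WT (0.923 to 0.962) and 1.06 in LNCKO (1.04 to 1.08), from 17150 to 22285 fragments per library. Cd22 (ENSMUSG00000030577, chr7:30865402-30880342, - strand) had an FPKM of 13.2 without and 13.9 with butyrate in WT, and 13.7 without and 14.6 with butyrate in LNCKO. Its ratio was 1.05 in WT (1.02 to 1.08) and 1.07 in LNCKO (1.04 to 1.09). An antisense gene, Gm29439, shares 479 exonic bases with Cd22, but no FPKM is listed for it. Ms4a1 and Cd22 thus each stayed within a narrow band of levels across the 4 libraries.

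Fcer2a (ENSMUSG00000005540, chr8:3681737-3694175, - strand) differed in the other direction from the pre-B genes. Its FPKM was 0.691 without and 1.08 with butyrate in WT, and 0.801 without and 0.611 with butyrate in LNCKO, from 485, 794, 532 and 498 fragments. WT butyrate was highest and LNCKO butyrate lowest. The ratio with butyrate was 1.56 in WT (1.39 to 1.75) and 0.762 in LNCKO (0.673 to 0.863). In WT, 3.94% of all genes were at least 1.5-fold higher. CD23 is found on mature B cells, but which cells gave these fragments was not tested.

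**Figure D3:**
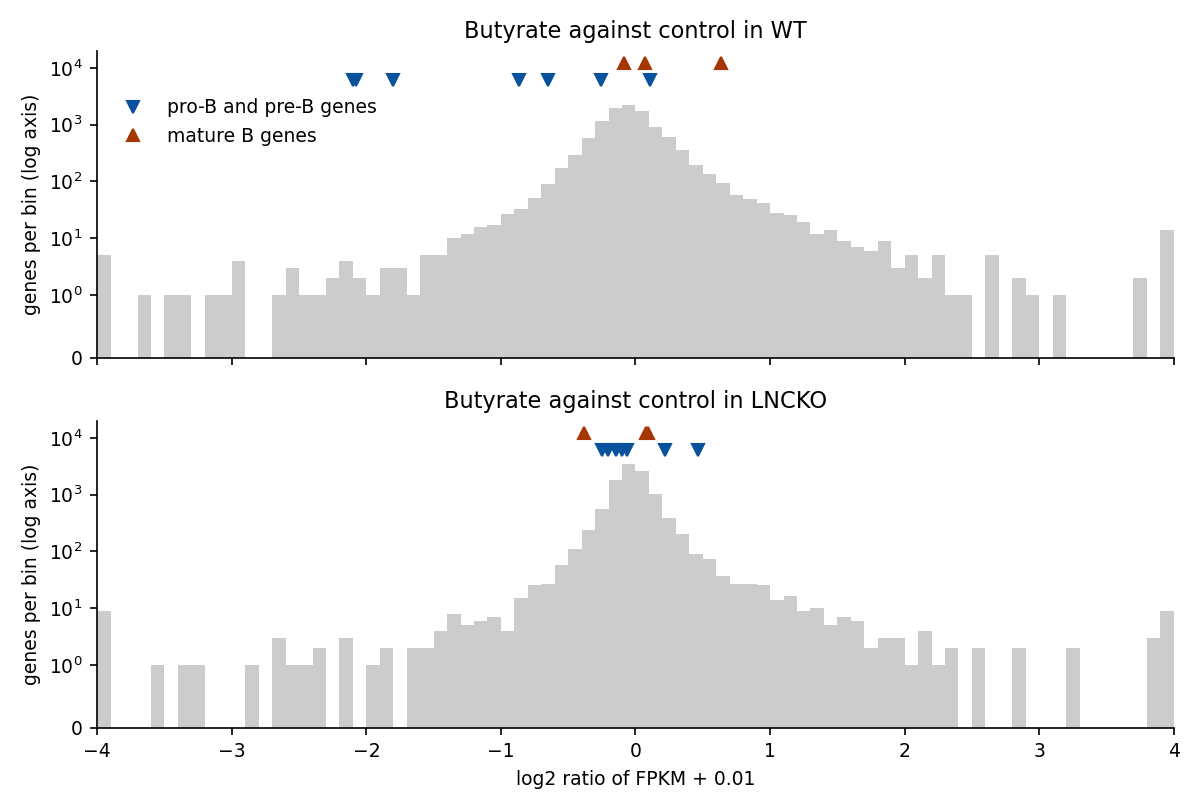
Histogram of the log2 ratio of FPKM + 0.01 with butyrate over the 10959 genes above the floor, in WT (top) and LNCKO (bottom), with counts on a log axis and values beyond the axis placed in the end bins. Triangles mark the pro-B and pre-B genes (blue) and the mature B genes (brown), and 3 of the blue triangles lie below -1 in WT and none in LNCKO.

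The genotypes were also compared directly. Without butyrate, LNCKO and WT were close, with a median difference of 0.05 for the pro-B and pre-B genes and 0.05 for the mature B genes, against 0.02 for all genes. Vpreb1 was the only member that differed by at least 1.5-fold, with a ratio of 1.58 (1.23 to 2.04), where 2.29% of all genes were at least 1.5-fold higher and 2.26% lower. Under butyrate, the median difference of LNCKO from WT was 1.05 for the pro-B and pre-B genes and 0.07 for the mature B genes, against 0.05 for all genes. Of the 7 early genes, 4 were at least 2-fold higher in LNCKO, where 1.22% of all genes were, and 5 were at least 1.5-fold higher, where 3.4% of all genes were. None of the 10 genes was at least 2-fold lower, where 1.4% of all genes were. The plain ratios were 5.09 for Igll1 (3.71 to 7.12), 4.23 for Rag1 (4.00 to 4.48), 3.72 for Rag2 (2.90 to 4.82), 2.10 for Vpreb1 (1.58 to 2.81) and 1.68 for Vpreb3 (1.56 to 1.81). Il7r was 1.44-fold higher, and Dntt had a ratio of 0.914 (0.831 to 1.00). Fcer2a was 1.76-fold lower in LNCKO, and 3.63% of all genes were at least 1.5-fold lower. This comparison shares its WT butyrate library with the butyrate comparison in WT, so both rest on the same single culture and are not separate evidence. The change with butyrate in WT less that in LNCKO was -2.55 for Igll1, -1.95 for Rag1, -1.60 for Rag2, -0.77 for Vpreb3, -0.48 for Il7r and -0.40 for Vpreb1. It was -0.17 for Ms4a1, -0.02 for Cd22, 0.18 for Dntt and 1.02 for Fcer2a. These differences between the genotypes were not tested. T lineage markers also differed between the genotypes, with medians of 0.52 without butyrate and 0.63 under butyrate for LNCKO against WT over the 8 above the floor, of which 7 and 6 were higher. Under butyrate, Cd3e differed by 2.00, Cd3g by 1.96 and Cd3d by 1.31, from at most 41 fragments in WT and 107 to 197 in LNCKO, and Ptcra by -1.32. The part of such cells in the genotype differences of Il7r and the other early genes was not tested.

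Other genes of the B lineage were read in the same way, and in WT their medians lay between those of the early and the mature members. The median over all genes was itself negative, at -0.05 in WT and -0.02 in LNCKO. More genes were thus lower than higher, and a count of lower genes has to be read against that. Some listed genes, such as Lyn, Syk, Spi1 and Cd74, can also be expressed by macrophages. Which cells gave their fragments was not tested. Of the 15 B cell receptor and pan-B genes, 14 were lower with butyrate in WT, with a median of -0.27, and 7 were lower in LNCKO, with a median of 0.00. Cd79a, a signalling chain of the receptor, had an FPKM of 68.3 without and 51.3 with butyrate in WT, and 69.3 without and 69.2 with butyrate in LNCKO. Cd79b, its partner, changed by -0.40 in WT. The largest changes in WT were those of Ptprcap with -2.11, Fcrla with -0.69 and Pou2af1, a coactivator of octamer factors, with -0.52. Ptprcap also had -1.53 in LNCKO, where Fcrla had 0.05. Less the pan-B median, the changes in WT were -1.84 for Rag1, -1.81 for Igll1, -1.54 for Rag2, -0.60 for Vpreb3 and -0.39 for Vpreb1, against 0.01 for Il7r, 0.18 for Ms4a1, 0.34 for Cd22, 0.38 for Dntt and 0.90 for Fcer2a. This takes the same value from every gene, so it leaves their order as it was. The pan-B list holds Lyn and Syk, so its median need not reflect B cells alone.

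Among the 14 B lineage transcription factors, 12 were above the floor, and 8 of them were lower with butyrate in WT. Their median was -0.15, against -0.05 for all genes. Sox4, a factor of early B cells, changed by -0.82, Irf4, which acts at the light chain stage and in plasma cells, by -0.59, and Foxo1, an activator of the Rag genes, by -0.35. In LNCKO these values were -0.13, -0.10 and -0.15, and the list's median was -0.07. Ebf1 and Pax5, which set the identity of B cells, had -0.23 and -0.14 in WT. Of 16 further pro-B and pre-B genes, 14 were above the floor, of which 12 were lower in WT, with a median of -0.19, and 2 were at least 1.5-fold lower (Akap12 with -0.73 and Cecr2 with -0.64), where 2.91% of all genes were. Bst1 had 0.46. Their median in LNCKO was -0.09. Of the 18 further mature B genes, 10 were lower and 8 higher in WT, with a median of -0.04, near the -0.05 of all genes. The complement receptor gene Cr2 had a change of 0.89, the antigen presentation gene H2-Oa 0.48 and Cd40 -0.52. In LNCKO their median was 0.02.

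The other lists had smaller median changes in WT than the 7 pro-B and pre-B members, whose median was -0.87. The medians over all genes were -0.05 in WT and -0.02 in LNCKO. Of the 12 end joining genes, which repair the breaks that RAG makes, 9 were above the floor and had a median of -0.21 in WT and -0.08 in LNCKO. The largest changes in WT were those of Polm, a polymerase related to terminal transferase, with -0.69, Xrcc6 with -0.42 and Lig4 with -0.39. The 12 genes of IL-7 receptor signalling had 6 lower and 6 higher in WT, with a median of -0.03. Myc had 0.91, Stat5a -0.41 and Il2rg 0.26, and the list's median in LNCKO was -0.01. Plasma cell genes, 7 of 8 above the floor, had medians of -0.29 in WT and -0.07 in LNCKO, with Derl3 at -0.65 in WT. All 10 cell cycle genes were lower in WT, with a median of -0.23 and a range from -0.43 for Ccna2 to -0.10 for Mcm5, and 8 of 10 were lower in LNCKO, with a median of -0.08. None of the cell cycle genes differed by 1.5-fold.

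**Figure D4:**
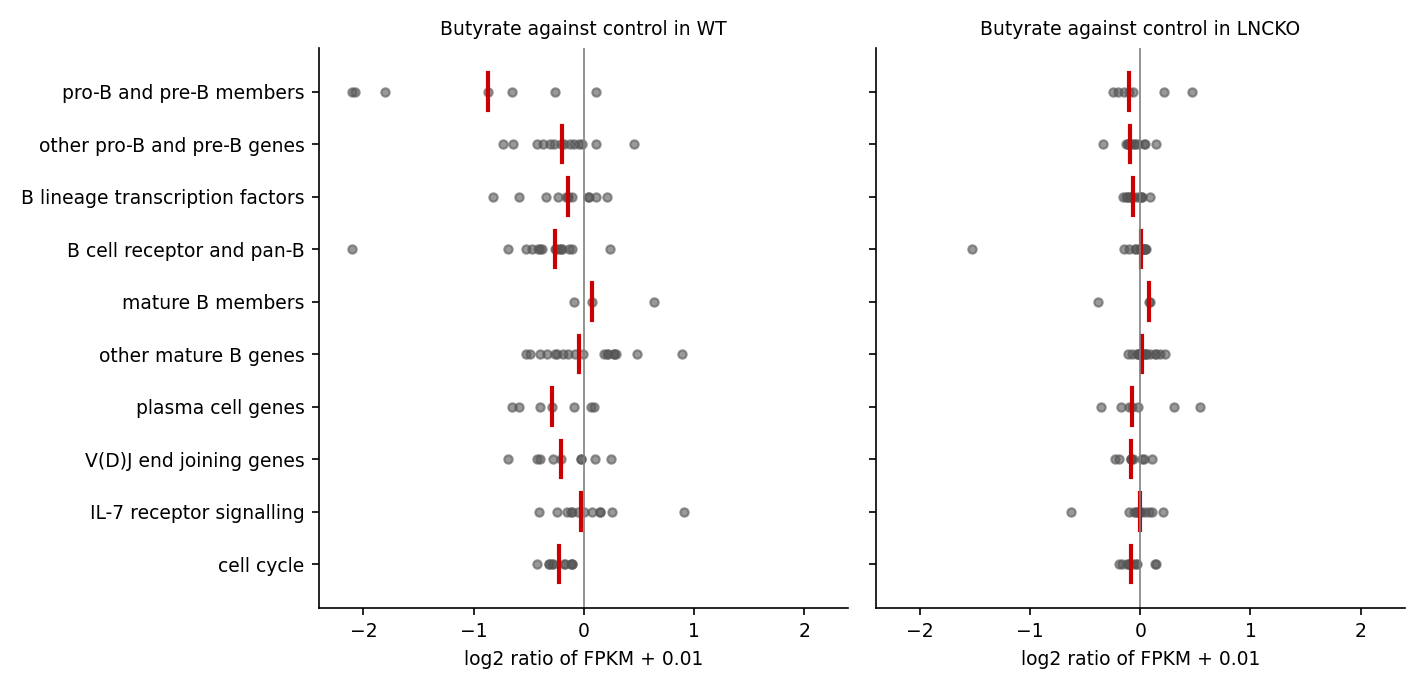
Log2 ratio of FPKM + 0.01 with butyrate for the genes above the floor in 10 lists, in WT (left) and LNCKO (right), 1 point per gene, with red bars at the medians. The pro-B and pre-B genes have the lowest median in WT, at -0.87, and the medians in LNCKO lie between -0.10 and 0.08.

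Markers of other marrow cells also differed between these libraries. The summed FPKM of 8 macrophage markers was 611 in WT control and 642 in WT butyrate, with 6 of 8 higher and a median change of 0.17, and 602 and 618 in LNCKO, with 5 of 8 higher and a median of 0.06. That of 7 neutrophil markers was 2143 in WT control and 2636 in WT butyrate, with 5 of 7 higher and a median of 0.31. In LNCKO it was 1838 and 1782, with 2 of 7 higher and a median of -0.04. S100a8 and S100a9 had the highest FPKM of these markers in every library and weighed most in these sums. The markers lower in WT were Ltf with -0.19 and Camp with -0.45. Of the 6 plasmacytoid dendritic cell markers, 4 were lower in WT, with a median of -0.34, and 2 in LNCKO, with a median of 0.06. The medians over all genes were -0.05 in WT and -0.02 in LNCKO. The erythroid gene Hba-a1, the only erythroid marker above the floor, had an FPKM of 2.97 and 3.15 in WT against 10.2 and 28.6 in LNCKO. None of the macrophage, neutrophil or plasmacytoid markers was at 0. The part of such shifts in the values of the B lineage genes was not tested.

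For the 4 members with a range of at least 2-fold over the 4 libraries, the genes with the most similar profile were sought over all 4 libraries. The likeness is the distance between profiles of log2(FPKM + 0.01) less their mean, where 0 is identical. The nearest to Rag1 were Marco at 0.21, Rag2 at 0.22, Cplx2 at 0.34, Scai at 0.39 and Igll1 at 0.44. For Rag2 they were Cplx2 at 0.16, Rag1 at 0.22, Marco at 0.29, Gpr12 at 0.38 and Zfp82 at 0.40. For Igll1 they were Npy at 0.36, Rag1 at 0.44, Rell2 at 0.47, H4c2 at 0.51 and Rag2 at 0.51. Vpreb1 was nearest to Derl3 at 0.08, Tmprss3 at 0.10, and Egr2, Cpa3 and Fzd1 at 0.15 to 0.17. Rag1, Rag2 and Igll1 were thus among each other's 5 nearest genes, except that Igll1 was not among the 5 nearest to Rag2. Marco, a scavenger receptor of macrophages, had an FPKM of 2.02 without and 0.461 with butyrate in WT, and 2.47 without and 1.81 with butyrate in LNCKO. With only 4 points a profile is a weak description. For Rag1, Rag2 and Igll1 it is set mainly by the WT butyrate library. Vpreb1 changed by -0.65 with butyrate in WT but also differed by 0.65 between LNCKO and WT without butyrate.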

How the data were processed

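RNA sequencing of BMDM cultures was analysed in 4 groups with 1 library each, mapped by their titles and library names. The names of the LNCKO libraries (NC and R3) do not spell their condition, so those values depend on the titles. The authors deposited FPKM values per gene and library and no counts. The submitters' processing notes name STAR 2.5.0c, Picard 1.126, bedtools 2.17.0, HTSeq 0.6.0, DESeq2 3.0 and GRCm38 without roles. The methods name TRIzol and MGISEQ-2000, the labels RNeasy, TruSeq and Illumina, and which of these applies is not settled here.

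Library totals were recovered as the number that turns FPKM times genomic span (GENCODE M21, GRCm38) into whole fragments. Of 16342 matched genes, 98.5% were whole within 0.02 in all 4 libraries. The deposited FPKM are therefore divided by a length that includes introns. Changes are log2 ratios of FPKM + 0.01, because a pseudocount of 1 shrinks genes of long span more. The background holds genes whose FPKM averaged 0.1 or more, and 2-fold and 1.5-fold mark a call. Ratio intervals are Clopper-Pearson intervals at 95% on fragment pairs, scaled by library totals. The exon scale is fragments per kilobase of merged exons for every 1000000.

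The members and lists were chosen with earlier results of these data known. The text names all members, the annotated genes that share exonic bases with a member, and up to 3 genes per list with the largest change in a comparison. It also names defining markers, some list genes that macrophages can also express, and the 5 nearest profiles of members with a range of at least 2-fold. The lists were B cell receptor and pan-B, B lineage transcription factors, further pro-B and pre-B, further mature B, plasma cell, end joining, IL-7 receptor signalling, cell cycle, T lineage, plasmacytoid dendritic cell, innate lymphoid and NK, macrophage, neutrophil and erythroid genes. Some genes are in several lists. The steps were tested on simulated data. Promoters come from the RefSeq table (GRCm38.p6). The work ran in Python 3.11.15 with pandas 2.3.3, scipy 1.17.1 for the intervals, numpy 2.4.6, and matplotlib 3.10.9 for the plots.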

Additional observations from a re-analysis of the deposited data

Results flagged for a closer look

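For 4 members, the change with butyrate had opposite signs in the genotypes, with counting intervals that exclude no change in both. Igll1 had -2.08 in WT and 0.47 in LNCKO, Il7r had -0.26 and 0.22, Fcer2a had 0.63 and -0.39, and Ms4a1 had -0.0861 and 0.0817. These directions come from single libraries, and the differences between the genotypes were not tested. The Ms4a1 values are small, and their intervals exclude no change only because the gene has at least 17150 fragments in every library.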

How the results depend on the processing

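No paired analysis was possible because each group has 1 library, and no library could be left out without emptying its group. Of 104 values of the stage medians and their differences under alternatives, 94 moved by less than 0.2 on the log2 scale, and no value of 1.5-fold or more changed sign. With a pseudocount of 1, the pro-B and pre-B median with butyrate in WT was -0.47 and its difference from the mature genes -0.54, and between genotypes under butyrate these were 0.48 and 0.42. With the floor raised to a mean of 1, the latter pair was 0.75 and 0.64, from the fewer members left. Less the pan-B median, the early and mature medians were -0.60 and 0.34 with butyrate in WT, and 0.71 and -0.28 between genotypes under butyrate, where the mature median thus turned from 0.07. For single members, 303 of 340 values moved by less than 0.2. Of 108 values of changes of at least 1.5-fold, 108 had the same sign and 97 were still at least 1.5-fold. With a pseudocount of 1, the pro-B and pre-B genes lower with butyrate in WT by 2-fold numbered 1 in place of 3 (Rag1) and by 1.5-fold 3 in place of 5, since Igll1 had -0.71, Rag2 -0.47 and Vpreb1 -0.25. Between genotypes under butyrate, those higher numbered 1 in place of 4 and 3 in place of 5, with Rag2 at 0.48 and Vpreb1 at 0.45. Fcer2a was then within 1.5-fold in both comparisons, as was Vpreb1 between the controls. Vpreb1 in WT was also within 1.5-fold with a pseudocount of 0.1 (-0.57) and less the pan-B median (-0.39), Fcer2a in WT with a pseudocount of 0.1 (0.57), and Vpreb3 between genotypes under butyrate less the pan-B median (0.40).

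The counts of all genes past 2-fold were 273 with butyrate in WT, 161 with butyrate in LNCKO, 226 between the controls and 287 between the butyrate libraries. In the same order they were 152, 87, 122 and 161 with a pseudocount of 0.1, and 28, 14, 23 and 36 with a pseudocount of 1. They were 51, 22, 28 and 63 with the floor at 1, and 969, 783, 931 and 983 with no filter on low values. Rescaled to 1000000 per library, which admits more genes, they were 989, 800, 952 and 1004. With at least 100 fragments on average, chosen after seeing the data, they were 158, 82, 110 and 189. Scaling by the median ratio and leaving out the pseudocount kept them within 1.5 times. Depth limits Igll1, Vpreb1 and Rag2, with 46 to 325 fragments per library.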
